A study of Equus caballus with 4 samples.

Results

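The Krüppel-like factors (KLF) and the ETS factors are families of transcription factors that are switched on and off by growth factor, stress and hormone signals. The expression of 6 KLF genes (*klf2*, *klf4*, *klf5*, *klf6*, *klf9* and *klf10*) and 4 ETS genes (*ets1*, *ets2*, *elf1* and *etv6*) was examined in differentiating equine satellite cells (ESC), the stem cells of skeletal muscle. All probes that carried 1 of these 10 symbols as gene name were taken, which gave 15 probes of 9 genes among the 43603 different probes on the array. No probe carried the name *klf2*. Of the 15 probes, 14 probes of 8 genes had enough signal to be tested, among 24670 tested probes in all.

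ESC came from the *m. semitendinosus* of young stallions and had differentiated for 3 days. For the HMB-treated group, HMB, which is made from leucine, was present at 50 µM for 24 h, and H2O2 at 3 mM was added for the last 1 h. The control received H2O2 without HMB, so that all cells of both groups had been exposed to H2O2. On each of 4 arrays, RNA of HMB-treated cells labeled with Cy5 and control RNA labeled with Cy3 were hybridized together, and each array counted as 1 replicate. The methods select 1 best culture for further work, so n = 4 need not stand for 4 horses, and the p-values measure only the spread between these arrays. The dyes were never swapped, so treatment and dye cannot be told apart. The labels number the control as replicate 1 on every array, whereas the design text gives 4 control replicates. Should all arrays have carried the same control RNA, the errors below would leave out how far controls vary.

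KLF proteins bind GC-rich and CACCC sequences through zinc fingers near the C-terminus, and different members activate or repress the same kind of site. In muscle, *klf2* and *klf4* are known to be induced through the ERK5 kinase cascade and MEF2 factors, *klf5* takes part in myoblast differentiation, and *klf6* and *klf10* respond to TGF-beta. *klf9* is a target of glucocorticoids. ETS proteins bind sites with a GGAA core through the ETS domain. ETS1 and ETS2 are activated by the RAS and ERK pathway, ELF1 is best known from blood and endothelial cells, and ETV6 is a repressor.

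The sequences of the probes show which stretch of each mRNA was measured. They are given here with 1 probe for each of the 9 genes. For *etv6* this is the dimmer of its probes, whereas the counts below rest on the brighter one, and for the other 8 genes it is the probe with that gene name that was brightest. Each probe has 60 bases and is written 5′ to 3′ in the sense of the mRNA. Capitals mark the motif ANACNGGNG, which encodes the start of the linker between zinc fingers, or, in *ets2*, the motif CGNTANTA, which encodes part of the recognition helix of the ETS domain.

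*klf4*: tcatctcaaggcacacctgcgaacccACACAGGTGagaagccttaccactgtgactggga
*klf5*: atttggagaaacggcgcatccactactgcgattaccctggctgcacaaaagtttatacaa
*klf6*: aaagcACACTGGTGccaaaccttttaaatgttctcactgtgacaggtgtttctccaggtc
*klf9*: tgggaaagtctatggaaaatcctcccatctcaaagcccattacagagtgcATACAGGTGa
*klf10*: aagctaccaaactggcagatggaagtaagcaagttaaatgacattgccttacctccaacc
*ets1*: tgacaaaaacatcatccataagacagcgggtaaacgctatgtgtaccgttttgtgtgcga
*ets2*: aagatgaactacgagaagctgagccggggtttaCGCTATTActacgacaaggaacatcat
*elf1*: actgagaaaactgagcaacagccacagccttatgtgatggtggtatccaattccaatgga
*etv6*: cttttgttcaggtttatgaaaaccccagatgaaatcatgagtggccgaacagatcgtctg

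The linker motif was found in 7 of the 15 probes, namely those of *klf4*, *klf6* and *klf9*, and in 871 of all 43603 probes (2.00%, on either strand). The helix motif was found in 1 of the 15 probes and in 224 of all probes (0.514%), and no probe of the 15 held both motifs. The linker is shared by many zinc finger genes, but the longest run of bases that any of the 15 probes shared with a probe of another gene name was 17, in *klf4* and *ets2*. On the EquCab1 build, the probes of *klf4* (chr25:22381382-22382352), *klf5* (chr17:45350886-45351985), *klf9* (chr23:10744774-10764924) and the *etv6* probe shown (chr6:40036162-40039972) span more genome than their own 60 bases, as does *klf6* (chr29:29216702-29217226). Their sequence is thus split in the genome, whereas *klf10* (chr9:43270322-43270381), *ets1* (chr7:33790742-33790801) and the *elf1* probe shown (chr17:27928646-27928705) are unbroken. The *ets2* probe (chr26:6962592-6962654) spans 3 bases more than its length. Exons are not annotated in the files. Of the 5 *klf6* probes, each starts 1 base from the next, so they read the same stretch and are not independent measurements of this gene.

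For each spot the files give a processed signal per channel, which is the brightness after background subtraction and linear and lowess normalization within the array, in arbitrary units. They also flag a spot as well above background or not. On each array, 57.6% to 60.6% of the spots were well above background in the Cy3 channel and 55.2% to 61.8% in the Cy5 channel. Values below are log2 ratios of HMB-treated over control, unless they are called signals. A probe was called at an adjusted p of 0.05 or less (limma, Benjamini-Hochberg over all tested probes) and an FC of 1.3 or more. With 4 arrays, precision is limited by their number.

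The labelled cell type was checked with markers. All 8 muscle markers with a probe were well above background in both channels on 4 of 4 arrays, and 6 were called lower with HMB, of which *myf5* (−1.49), *myh3* (−1.38) and *des* (−1.22) changed most. The others were *myod1*, with −0.11 and 0.32 on its 2 probes, and *myog* (0.03), and neither was called. The summed signal of all 8 was 169656 to 191451 in the control and 64754 to 102980 in the HMB-treated group. Of 6 tested fibroblast markers, 5 were called higher (*pdgfra* 1.49, *dcn* 0.77 and *thy1* 0.76), and the summed signal of the 7 with a probe was 197892 to 226403 in the control and 228449 to 347718 with HMB. *col3a1*, whose brightest probe was not called (0.06), made 68.2% of this sum in the control. Of its 7 probes, 3 were called, and their ratios ran from 0.06 to 0.42 over all 7. After the shift of the ratios to the spike-in RNA, described below, 1 fibroblast marker was called higher and 1 lower. For the 9 leukocyte markers, the sums were 4377 to 5202 and 5059 to 7240, of which *cd14* made 83.1% in the control. Of the 3 tested, 2 were called higher, among them *cd68* (0.88), while *itgam*, *cd3e*, *cd79a* and *tyrobp* were not well above background on any array, and *csf1r* and *lcp1* were so on at most 1 array in a channel. None of 8 endothelial markers was tested. Of these, *tek* and *tie1* were well above background with HMB on 1 array, and the other 6, such as *pecam1* and *cdh5*, on none. The endothelial sums were 69.7 to 111 in the control and 85.1 to 199 with HMB. The part of these shifts in the results below was not tested. In bulk RNA, fewer cells of a type and less RNA per cell cannot be told apart.

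In the deposited ratios, HMB-treated ESC had more *klf4*, *klf6*, *ets1*, *elf1* and *etv6* mRNA and less *klf5* mRNA than the control. Only *klf4* kept its call under every alternative of processing given below. After the shift to the spike-in RNA, *klf6*, *elf1* and *etv6* were not called. *klf10* was called lower on the dim probe that carried its name, but not on 2 brighter probes. With each gene read from its brightest tested probe, 5 of 8 genes were called higher and 2 lower, and *ets2* was not called. Over all 24670 tested probes, 28.6% were called, 12.1% higher and 16.4% lower. The members were chosen with earlier results of these data known, so their counts are not those of a neutral sample of genes. Among the 4 tested KLF genes 2 were called higher and 2 lower, and among the 4 tested ETS genes 3 higher and 0 lower, and the difference between the families was not tested. The median ratio was 0.08 for the KLF genes and 0.53 for the ETS genes, beside −0.07 over all tested probes. The filter let *klf10* in through the control channel alone, where this gene is the brighter of both groups, whereas the other 7 genes were well above background in both channels on all arrays. Among those 7, 5 were called higher and 1 lower. No spot of the 15 probes was marked as non-uniform, as an outlier or as saturated, and none held a surrogate signal.

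**Figure D1:**
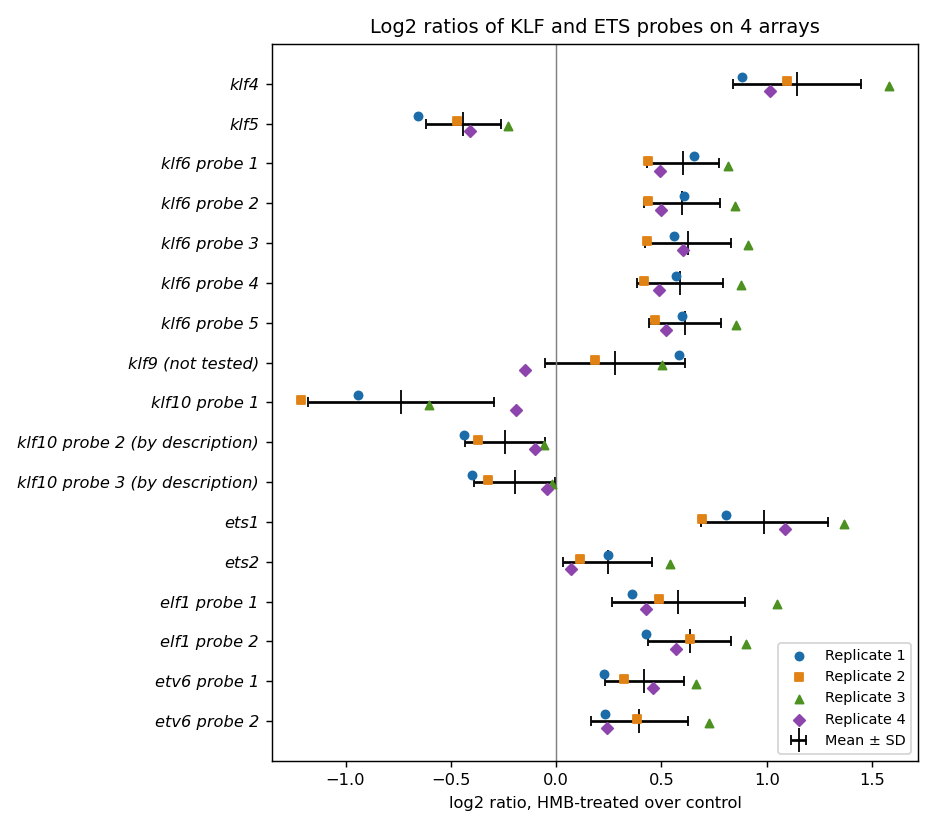
Log2 ratio of HMB-treated over control (horizontal axis) for the 15 probes named as KLF or ETS genes and 2 further *klf10* probes known only by their description. Points are the 4 arrays and bars the mean ± SD (n = 4); *klf4* has the highest mean (1.14), and the *klf10* probe with that gene name the lowest (−0.74).

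Among the KLF genes, *klf4* changed most. KLF4 is a factor that can activate or repress transcription and is known for cell cycle exit, barrier tissues and pluripotency. In replicates 1 to 4, the control signal of *klf4* was 158, 121, 128 and 116, and the signal of the HMB-treated group was 292, 259, 383 and 234. The lowest HMB signal lay above the highest control signal, so the groups did not overlap. The log2 ratio was 0.88, 1.09, 1.58 and 1.01, with a mean of 1.14 ± 0.31 (SD, n = 4), an FC of 2.21 and an adjusted p of 6.72e-04 (limma). A higher mean ratio was found in 3.76% of all tested probes. *klf4* kept its direction and its call under all 12 alternatives of processing and when each array was left out, with a lowest value of 0.65 after a shift to the spike-in RNA. Most of the 12 could not change its ratio, so its direction was fixed there in advance. The other tests and the changes of filter used the same ratio. The authors' table held the same ratios, and *klf4* has only 1 probe to choose or average.

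*klf6* encodes a broadly expressed activator that is known to rise after tissue injury. In its brightest probe, the control signal was 845, 777, 893 and 689.5 and the HMB signal was 1286, 1053, 1608 and 974, with no overlap. The log2 ratio was 0.61, 0.44, 0.85 and 0.50, with a mean of 0.60 ± 0.18 (SD, n = 4), an FC of 1.51 and an adjusted p of 0.00222 (limma). The 5 probes had means between 0.59 and 0.63, and all were called, but since they share nearly all bases this shows the repeatability of spots within an array. The call was lost with limma's treat against an FC of 1.3 (adjusted p = 0.136) and after the shift to the spike-in RNA, which left a ratio of 0.11.

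*klf5* was lower with HMB. This gene encodes an activator of proliferating cells that is often opposed to KLF4 on the same sites. The control signal of *klf5* was 235, 200.5, 245 and 209, and the HMB signal was 149, 145, 209 and 158. The HMB signal of replicate 3 lay within the range of the control, whereas within each array the HMB signal was the lower. The log2 ratio was −0.66, −0.47, −0.23 and −0.41, with a mean of −0.44 ± 0.18 (SD, n = 4), an FC of 1.36 and an adjusted p of 0.0068 (limma). This is close to the limit of 1.3, and without replicate 1 the ratio was −0.37 and *klf5* was not called. Nor was it with the methods' t-test, which takes the spread from each probe alone, with treat, with normexp (a model-based background correction) or without background correction.

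*klf10* encodes a repressor that is an early response gene of TGF-beta. In the probe with this gene name, the control signal was 40.5, 43.4, 53.1 and 31.0, and the HMB signal was 21.1, 18.7, 35.0 and 27.1. Signals of the groups overlapped, and the HMB signal was well above background only in replicate 3. The log2 ratio ran from −1.21 in replicate 2 to −0.19 in replicate 4, with a mean of −0.74 ± 0.44 (SD, n = 4), an FC of 1.67 and an adjusted p of 0.0117 (limma). The array held 2 more probes whose description, but not gene name, gives KLF10. They lie outside the rule for the 15 probes, lie with 474 bases between them and the probe above, and share 30 bases with each other.

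These 2 *klf10* probes were brighter and moved less. For the probe on chr9:43269758-43269817, the control signal was 661, 526, 719 and 591 and the HMB signal was 489, 406, 691 and 551. Replicates 1 and 2 were clearly lower with HMB, and replicates 3 and 4 were nearly equal in both channels. The ratio was −0.44, −0.37, −0.06 and −0.10, with a mean of −0.24 ± 0.19 (SD, n = 4) and an adjusted p of 0.0606 (limma). The other probe (chr9:43269788-43269847) had a mean of −0.20 ± 0.19 (SD, n = 4; limma adjusted p = 0.109). All 3 probes were lower on 4 of 4 arrays, but only the dim one was called, so the size of the fall in *klf10* depended on the probe. The call of the dim probe was lost with the methods' t-test (adjusted p = 0.0968), with treat, with both other background corrections and without the filter on dim probes.

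*klf9* and *klf2* gave no measurable level. KLF9 is a small repressor and activator induced by glucocorticoids and thyroid hormone. Its control signal was 10.3, 8.10, 11.8 and 12.4, and its HMB signal was 15.5, 9.19, 16.8 and 11.1, and neither was well above background on any array. For *klf2*, known from endothelial cells and quiescent lymphocytes, 1 probe was found by its description only, on the unplaced sequence of the build (chrUn:216936078-216936137). Its signals were 5.11 to 7.90 in the control and 7.36 to 10.0 with HMB, and most of them were surrogate values, which the software sets in place of signals near background.

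**Figure D2:**
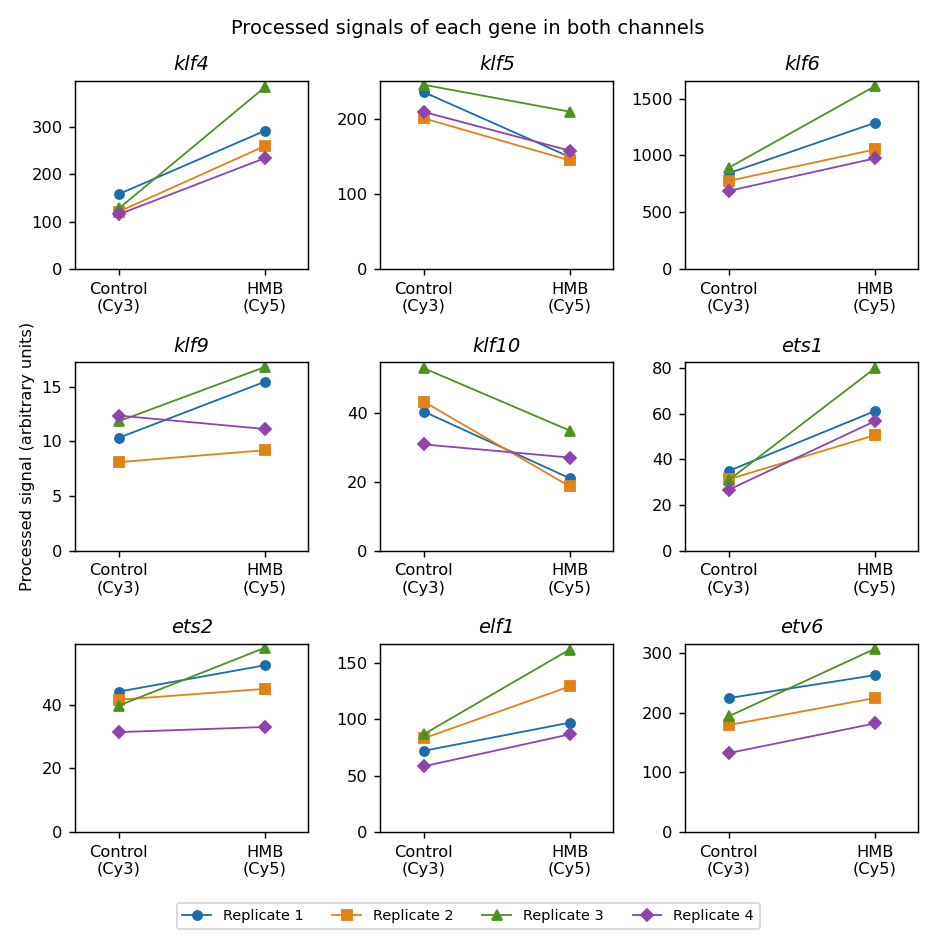
Processed signal in arbitrary units (vertical axis, starting at 0 and scaled for each gene) in the control (Cy3) and HMB-treated (Cy5) channel, for the brightest probe of each gene, with a line for each of the 4 arrays. All lines of *klf4*, *klf6*, *ets1*, *ets2*, *elf1* and *etv6* rise, those of *klf5* and *klf10* fall, and 3 of the 4 lines of *klf9*, which was not well above background, rise.

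Among the ETS genes, *ets1* changed most. ETS1 is a target of RAS and ERK signaling that is known for angiogenesis, invasion and matrix protease genes. The control signal of *ets1* was 35.0, 31.3, 31.0 and 26.7, and the HMB signal was 61.2, 50.6, 79.9 and 56.8, without overlap. The log2 ratio was 0.81, 0.69, 1.36 and 1.09, with a mean of 0.99 ± 0.30 (SD, n = 4), an FC of 1.98 and an adjusted p of 0.00115 (limma). The probe is dim, and the size of its ratio differed with the processing. The ratio was 0.23, under the FC limit, when the background was corrected by normexp with an offset of 50 (limma adjusted p = 0.0214). Without background correction it was 0.39, and *ets1* was still called (limma adjusted p = 0.00169). The cause of these differences was not tested.

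*ets2*, the closest relative of *ets1*, had a smaller ratio. Its control signal was 44.1, 41.6, 39.8 and 31.4, and its HMB signal was 52.4, 45.0, 57.9 and 33.0, with overlap between the groups. The ratio was 0.25, 0.11, 0.54 and 0.07, above 0 on 4 of 4 arrays, with a mean of 0.24 ± 0.21 (SD, n = 4) and an adjusted p of 0.0716 (limma). Thus *ets2* was not called, and the difference between both genes was not tested.

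*elf1* and *etv6* were each called higher on both of their probes. ELF1 is an activator with an ETS domain that differs from that of ETS1 in its binding preference. In the brighter *elf1* probe, the control signal was 72.0, 83.0, 86.7 and 58.2 and the HMB signal was 96.9, 129, 162 and 86.5. The ranges touched, since the lowest HMB signal (replicate 4) was just under the highest control signal (replicate 3). The ratio was 0.43, 0.64, 0.90 and 0.57, with a mean of 0.63 ± 0.20 (SD, n = 4; limma adjusted p = 0.00214). The other *elf1* probe (chr17:27928706-27928765), which begins at the next base, had ratios of 0.36, 0.49, 1.05 and 0.42 (mean 0.58 ± 0.32, SD, n = 4; limma adjusted p = 0.0103). Both *elf1* probes thus gave nearly the same size of change. The call of the brighter probe was lost with normexp (0.26), with treat (adjusted p = 0.0992) and after the shift to the spike-in RNA (0.15).

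ETV6 (TEL) is a repressor that is known from blood stem cells. In the brighter *etv6* probe (chr6:40039980-40040039), the control signal was 225, 179, 194 and 132 and the HMB signal was 263, 225, 307 and 182, and the groups overlapped. The ratio was 0.23, 0.32, 0.66 and 0.46, with a mean of 0.42 ± 0.19 (SD, n = 4), an FC of 1.34 and an adjusted p of 0.0094 (limma). The probe of *etv6* whose sequence is given above had a mean of 0.40 ± 0.23 (SD, n = 4; limma adjusted p = 0.018). Without replicate 3, the ratio of the brighter probe was 0.34 and *etv6* was not called. After the shift to the spike-in RNA, it was −0.070. The call was also lost with the methods' t-test (adjusted p = 0.0608), with treat, with normexp (0.22) and without background correction (0.35).

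Replicate 3 gave the highest ratio in 13 of the 14 tested probes, or in 7 of 8 genes. Only *klf10* had its highest ratio on another array, replicate 4. Over all tested probes, replicate 3 was the highest in 30.0%, and over all probes called higher in 41.0%. The medians of the tested ratios were between −0.08 and −0.06 on the 4 arrays. Because the normalization centers each array, these medians could not show a shift of a whole array. The log2 shift taken from the spike-in RNA, described below, was 0.37 for replicate 3 and 0.46 to 0.57 for the other arrays. Its part in the members' ratios was not tested. On replicate 3, the summed HMB signals of the muscle, fibroblast and leukocyte markers were also the highest of the 4 arrays, and the part of this in the members' ratios was not tested.

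The direction of small ratios rested on the scaling. The normalization within arrays centers the bulk of the probes near 0. When the ratios were shifted to the spike-in RNA, which had been added in known amounts to both RNAs, the median of all tested probes moved by −0.49. On that scale 1247 of the 24670 tested probes were called higher and 17324 lower. Of the called probes 6.71% were higher, compared with 42.5% in the deposited ratios. *klf4* (0.65), *ets1* (0.50), *klf5* (−0.93) and *klf10* (−1.22) were still called in the same direction. *klf6*, *elf1* and *etv6* were not called, and the ratio of *ets2* was −0.24. Centering on the median without lowess moved the median by 0.14 the other way, with 63.2% of the called probes higher and with *klf5* (−0.32) not called.

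**Figure D3:**
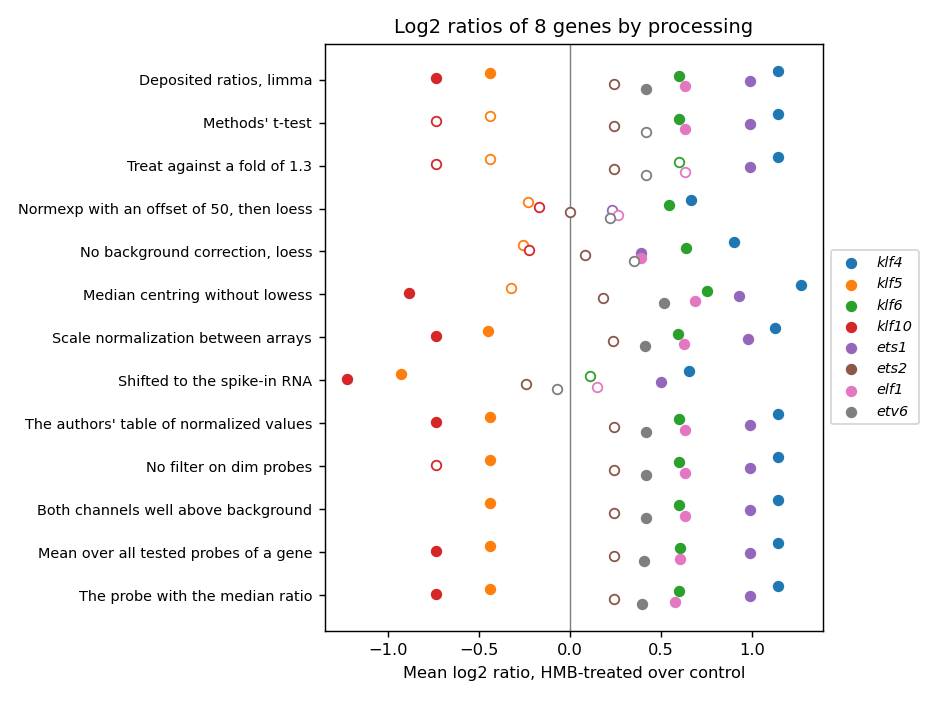
Mean log2 ratio (horizontal axis) of 8 genes under each way of processing (vertical axis), with filled points where the gene was called and open points where it was not. *klf4* was called in every row, whereas *ets2* was called in none and lay at −0.24 after the shift to the spike-in RNA.

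The rest of both families was examined as background for these genes. Of 20 other KLF and SP genes, 12 had a probe and 6 were tested. Of these 6, 1 was called higher and 1 lower, beside 12.1% and 16.4% of all tested probes. With both channels required to be well above background, 4 were tested, 1 called higher and 0 lower. On that filter 2546 of all 22653 tested probes were called higher and 3324 lower. *klf3*, a repressor that recruits CtBP, was higher by 0.48 ± 0.13 (SD, n = 4; adjusted p = 0.00296, limma), which was −0.01 after the shift to the spike-in RNA. All 3 of its probes were called, with means from 0.48 to 1.23. *klf8*, another repressor, was not well above background in the HMB-treated group on any array and was at least 1.39-fold lower there. Its mean log2 ratio was −1.36 (limma adjusted p = 0.001) and rests on this dim HMB signal. The bound of 1.39-fold was not itself tested. The median of the 6 genes was 0.05. *sp1*, a widely expressed activator, had 6 probes, of which 2 were tested and disagreed, with a ratio of 0.05 in the brighter, which was not called, and 1.16 in the other tested one, which was.

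Of 23 other ETS genes, 22 had a probe and 13 were tested, with a median of 0.04. Of these 13, 4 were called higher and 0 lower, beside 12.1% and 16.4% of all tested probes. With both channels required to be well above background, 10 were tested, 3 called higher and 0 lower. *etv7*, a close relative of *etv6* and a known interferon-induced gene, was not well above background in the control on any array. Its mean ratio was 8.57-fold higher with HMB (limma adjusted p = 4.14e-05) and rests on this dim control signal. The bound for the dim channel was also 8.57-fold, so it set no lower limit beneath the mean. The log2 ratios of *etv7* were 3.42, 3.24, 3.29 and 2.45, and that of replicate 4 lay below the mean. *elf2*, the closest relative of *elf1*, was higher by 0.90 ± 0.21 (SD, n = 4; adjusted p = 5.75e-04, limma), above 0 on 4 of 4 arrays. *fli1*, known from blood and endothelial cells, was higher by 0.46 ± 0.28 (SD, n = 4; adjusted p = 0.0163, limma) and was not called without replicate 3 (0.33). After the shift to the spike-in RNA, 2 of the 13 passed as higher and 7 as lower, beside 1247 and 17324 of all 24670 tested probes.

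**Figure D4:**
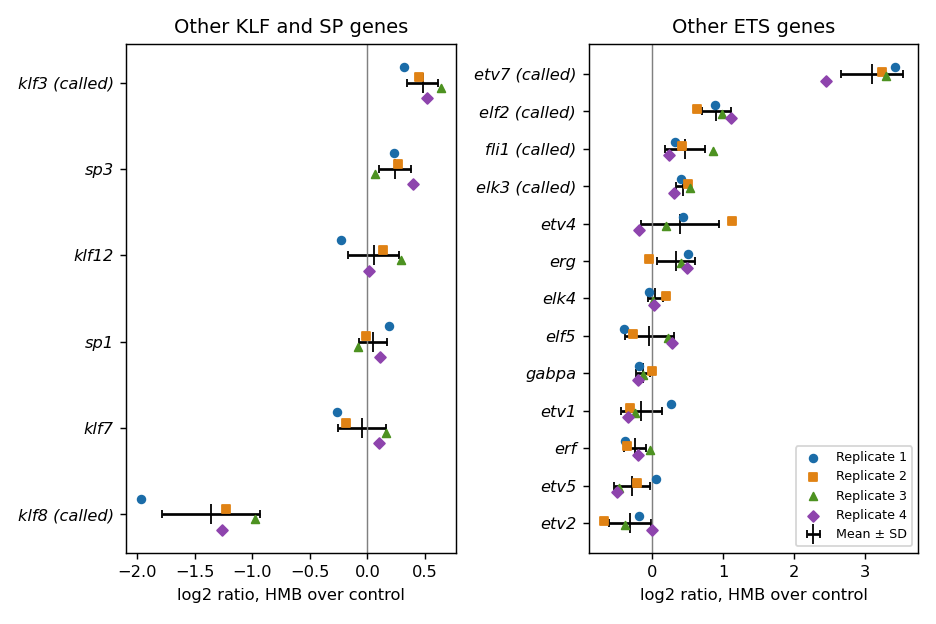
Log2 ratio of HMB-treated over control (horizontal axis) for the 6 other KLF and SP genes (left) and the 13 other ETS genes (right) that were tested, with points for the 4 arrays and bars for the mean ± SD (n = 4). *etv7* stands apart with ratios of 2.45 to 3.42 and *klf8* with a mean of −1.36, both with 1 channel not well above background, and most other genes lie within 0.5 of 0.

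Of the kinases and MEF2 factors that lie upstream of *klf2* and *klf4* in the ERK5 cascade, 5 were tested, 0 were called higher and 2 lower, with a median of −0.28, beside 12.1% higher and 16.4% lower over all tested probes. These were *map3k3*, the kinase MEKK3 (−0.65 ± 0.29, SD, n = 4), which passed the filter through the control channel and was well above background with HMB on 1 array only, and *mef2a* (−0.38 ± 0.17, SD, n = 4), whose FC of 1.31 is at the limit. The methods' t-test called 0 of these 5. The cofactors of KLF and ETS proteins, such as CtBP and p300, gave 0 calls among 7 tested genes with limma, where 3 had an unadjusted p under 0.05, and 0 with the methods' t-test. Of 5 tested ubiquitin ligases that degrade these factors, *wwp1*, a ligase of KLF2 and KLF5, was called lower (−0.51 ± 0.19, SD, n = 4; limma adjusted p = 0.00446). After the shift to the spike-in RNA, all 5 upstream genes, 6 of the 7 cofactors and all 5 ligases were called lower. On that scale 17324 of all 24670 tested probes were called lower as well.

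Genes commonly given as targets of KLF and ETS factors moved in both directions, with 4 called higher and 2 lower among 9 tested and a median of 0.19. With both channels required to be well above background, 7 were tested, 3 called higher and 1 lower. Over all tested probes, 12.1% were called higher and 16.4% lower. After the shift to the spike-in RNA, 2 of the 9 were called higher and 3 lower, with a median of −0.30, beside 1247 and 17324 of all 24670 tested probes. *mmp3*, a matrix protease and classical ETS target, was not well above background in the control on any array and was at least 3.84-fold higher with HMB. Its mean log2 ratio was 3.82 (limma adjusted p = 2.42e-05) and rests on this dim control signal. The bound of 3.84-fold was not itself tested. *vegfa* (1.01 ± 0.37, SD, n = 4), an angiogenic factor, was called on all 8 of its tested probes, among 10 on the array, and *egr1* (0.81 ± 0.30, SD, n = 4) was also higher. *spp1*, the gene of osteopontin, was lower (−1.29 ± 0.36, SD, n = 4), as was *tert* (−0.46 ± 0.41, SD, n = 4; limma adjusted p = 0.0454). The ratio of *tert* was 6.79e-05 in replicate 3, and its HMB signal was well above background on 1 array only.

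Among 6 tested genes that respond to glucocorticoids, as *klf9* does, 4 were called higher and 1 lower (median 0.47), beside 12.1% and 16.4% of all tested probes. With the methods' t-test these counts were 2 and 0, and after the shift to the spike-in RNA 0 and 2 (median −0.02). *dusp1* (0.83 ± 0.18, SD, n = 4), *fkbp5* (0.77 ± 0.37) and *errfi1* (0.51 ± 0.24) were higher, and *tsc22d3*, which encodes GILZ, was lower (−0.58 ± 0.33). For *fkbp5* 2 of 3 probes and for *tsc22d3* 1 of 2 probes were called. Of 7 tested early genes of TGF-beta, the pathway of *klf6* and *klf10*, *junb* was called higher (0.45 ± 0.24, SD, n = 4) and *smad6* lower (−0.58 ± 0.32), and the median was 0.13. The methods' t-test called 0 of the 7, and after the shift to the spike-in RNA 0 of the 7 were higher and 2 lower. On that scale 1247 of all 24670 tested probes were called higher and 17324 lower.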

How the data were processed

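RNA from HMB-treated (Cy5) and control (Cy3) equine satellite cells was hybridized on 4 dual-color Agilent arrays. The authors deposited scanner files with intensity values, for which Feature Extraction subtracted the background and applied linear and lowess normalization within each array. The file headers give version 10.10.1.1, while the methods name another. The log10 ratios in the deposited files are those of normalized Cy5 over Cy3, and the log2 ratios were calculated here from these deposited values. The authors' table of normalized values held the same ratios.

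Control spots and marked spots were left out, and spots of 1 probe were averaged. Tested probes had a channel that passed the well-above-background flag on every array, with ratios present on at least 3. The test was limma 3.58.1 in R 4.3.3 (lmFit with an intercept, eBayes), with Benjamini-Hochberg correction over all tested probes. Dim channels were turned into bounds after Aquantile scaling. On simulated data of 24670 probes, limma recovered 82% of 200 changed probes with 8 false calls. The simulated noise was independent between probes, and far fewer probes changed than were called in the data. These rates need not hold for the data. All probes of the 10 genes are named, and from each other list at most 3 called genes in each direction with the largest ratio. The members and lists were chosen with earlier results of these data known. Motifs were searched in the probe sequences of the files. Alternatives covered the test, background, normalization, filter, probes of a gene and each array left out.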

Additional observations from a re-analysis of the deposited data

How the results depend on the processing

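The deposited ratios gave 7046 called probes, with 5 of the 10 genes higher and 2 lower. These counts were 2822, 2 and 0 with limma's treat, 3538, 2 and 0 with normexp and an offset of 50, 4439, 4 and 0 without background correction, and 18571, 2 and 2 after the shift to the spike-in RNA. The methods' t-test called 5030 probes, 4 genes higher and 0 lower. Genes called lower numbered 1 with median centering (without *klf5*), 1 without a filter on dim probes (without *klf10*) and 1 with both channels well above background, where *klf10* was not tested. With each array left out in turn, between 6641 and 7155 probes, 4 to 5 genes higher and 1 to 2 genes lower were called. After the shift to the spike-in RNA, *ets2* (−0.24) and *etv6* (−0.070) changed sign, whereas no other gene changed sign under any alternative. Scale normalization, the authors' table, the mean over the probes of a gene and the probe with the median ratio kept the counts of 5 and 2. The ratio of *klf10* was −0.17 with normexp and −0.23 without background correction, and that of *klf5* −0.23 and −0.26. The causes were not tested. Signal over background was lowest in the named probes of *klf9*, *klf10*, *ets1* and *ets2*. Each ratio already pairs the treated and the control RNA of 1 array, so the test of the ratios is itself paired, and with 1 group of arrays no block could be added.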
